A study of Mus musculus with 8 samples.

Results

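Retinal gene expression was compared between 7 and 3 days of hyperoxia, using the 2 arrays labelled 7 days and the 2 labelled 3 days out of a series of 8. Both groups were C57BL/6J mice of 80 to 120 days, raised in 12 hours of dim light (5 lux) and 12 hours of darkness and then kept in 75% oxygen, so that the labels separate them by time in oxygen alone. The other 4 arrays came from mice of the same strain and age in normal oxygen (day 0, 2 arrays) or after 14 days in 75% oxygen (2 arrays). They entered the estimate of spread and are otherwise given as description. Per the study's methods, whole retinas from both sexes were pooled at each time, and 1 pool may have supplied both arrays. A p-value here therefore measures the spread between arrays, which may be technical. In RNA from whole retina, fewer cells of a type and less RNA per cell cannot be told apart.

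The retina is among the most oxygen-demanding tissues of the body, and most of that oxygen is burned in the mitochondria of the photoreceptor inner segments. The choroidal vessels that feed the photoreceptors do not constrict much when the blood is rich in oxygen, so breathing oxygen raises oxygen tension in the outer retina, and photoreceptors die when the exposure lasts. Müller cells, the glia that span the retina, and microglia, its resident macrophages, change their expression when photoreceptors are stressed. A comparison of day 7 with day 3 asks what differs between an early and a later stage of that exposure.

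A probe set is a set of short oligonucleotides that match 1 transcript, mostly near its 3' end, and a gene can have several. In all, 45037 probe sets other than controls were compared. A probe set was counted as higher on day 7 when both day 7 arrays lay above both day 3 arrays, and as lower when both lay below. By that rule 7410 probe sets (16.5%) were above and 10838 (24.1%) were below. The values are log2 expression centred for each probe set on its median over the 8 arrays, so they give differences between arrays and hold no level. The presence of retinal markers could therefore not be checked by level, nor could dim probe sets be left out. A difference is the day 7 mean minus the day 3 mean on the log2 scale, with its standard error (SE) from limma and n = 2 arrays in each group. The median difference over all probe sets was -0.03.

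In the test by limma, 0 of 45037 probe sets (0.0%) passed the adjusted p threshold of 0.05, and the lowest adjusted p was 0.347. At an unadjusted p under 0.05 there were 5448, of which 2604 were higher and 2844 lower on day 7. The study's methods used an analysis of variance across the time groups with an error model, which was not run here. A one-way analysis of variance of the day 7 and day 3 arrays alone gave 2674 probe sets at an unadjusted p under 0.05. Of these, 155 were 2-fold higher and 42 were 2-fold lower on day 7. After adjustment 1 remained, a probe set for *Alx1*, named here because its p was seen, whose difference was -0.05 and whose deposited values were equal within each time. No gene below is therefore said to have changed, and the values describe where the arrays lay.

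The means differed by 2-fold or more in 1369 probe sets, 891 higher (1.98%) and 478 lower (1.06%) on day 7. Of those with no overlap between the arrays, 595 were 2-fold higher and 453 were 2-fold lower. The higher share of the 2-fold probe sets, 65.1%, depended on the scaling, since it was 38.7% after a further quantile normalization of the deposited values. In 87 probe sets every day 7 array lay 2-fold or more above every day 3 array, and in 26 every one lay 2-fold or more below. Those 87 named 61 genes and those 26 named 23. The adjusted p of the 87 ran from 0.347 to 0.410.

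**Figure D1:**
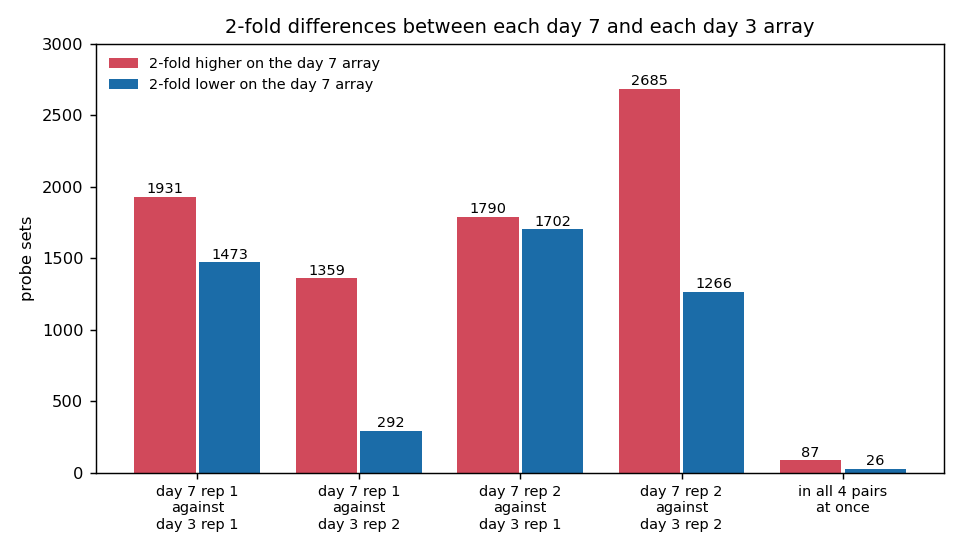
Number of probe sets (vertical axis) that were 2-fold higher (red) or 2-fold lower (blue) on a day 7 array than on a day 3 array, for each of the 4 pairs of arrays and in all 4 pairs at once. Single pairs gave 1359 to 2685 higher and 292 to 1702 lower probe sets, against 87 and 26 that met the limit in all 4 pairs.

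The plot of 2-fold counts by pair of arrays shows how much rests on single arrays. Day 7 replicate 1 against day 3 replicate 2 gave 1359 higher and 292 lower probe sets. Day 7 replicate 2 against the same day 3 array gave 2685 and 1266. The arrays of a time were not alike: across the 45037 probe sets, the centred values of the day 3 arrays had a Pearson correlation of -0.13 and those of the day 7 arrays 0.02, given as a description. The array labelled day 3 replicate 2 correlated at 0.74 with that labelled day 14 replicate 2, the highest correlation of any pair of the 8. Whether its label is right was not tested. Every day 7 minus day 3 difference here takes the label as given and would change if it were wrong. *Gapdh* is measured near its 3' and its 5' end, and the 3' minus 5' difference of its centred values was 1.19 on day 3 replicate 2 and 1.43 on day 14 replicate 2, against -0.32 to 0.12 on the other 6 arrays. The bacterial poly-A controls, spiked into the RNA before labelling, averaged 2.37 on day 3 replicate 1 and -0.61 to 0.04 on the other 3 arrays compared. The mean 3' minus 5' difference of these controls was 0.93 on day 3 replicate 2 and 1.22 on day 14 replicate 2. It was -1.41 on day 3 replicate 1 and -0.89 to -0.12 on the remaining arrays of the series. The SD of all values was 0.23 on day 7 replicate 1 and 0.41 on both day 3 replicate 1 and day 7 replicate 2. What part these properties have in the differences below was not tested. The difference without an array is added for genes below where leaving it out moved the value by over 1.5 times, and for genes that overlapped it is added without day 3 replicate 2 alone.

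The widest differences were in crystallins and other genes of the lens fibre, higher on day 7. Crystallins are the structural proteins that give the lens its refractive power, and *Cryab* is also known as a small heat shock protein in other tissues. Of 26 lens genes listed, 22 were measured, each by the mean over its probe sets, and 18 lay above on both day 7 arrays, 1 lay below (*Foxe3*, named after its value of -0.21 was seen) and 3 overlapped. Over all 18193 genes, 2844 (15.6%) lay above and 5093 (28.0%) below. After a further quantile normalization 3698 lay above and 3925 below, so these shares depended on the scaling. The median difference of the lens genes was 3.42, beside -0.06 over all genes. All 10 genes with the largest gap between the nearest arrays of the 2 times, in the direction of day 7, were lens genes. Of the 22, 17 (77.3%) were among the 61 genes at least 2-fold higher in every pair of arrays, where they made up 27.9%.

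*Cryaa*, the alpha A crystallin, had centred log2 values of -4.44 and -1.99 on the day 3 arrays and 3.15 and 3.91 on the day 7 arrays. The groups lay 5.14 apart at their nearest arrays, the widest gap of any gene. Its difference was 6.75 ± 2.13 (SE), with an adjusted p of 0.347 by limma. *Cryba1*, a beta crystallin, had -5.36 and -1.36 on day 3 and 2.31 and 3.48 on day 7, a difference of 6.26 ± 2.02. *Crygs*, the gamma S crystallin, had -5.02 and -1.15 against 2.49 and 3.21, a difference of 5.93 ± 1.95. In all of these day 3 replicate 1 was by far the lowest of the 4 arrays. *Crygb*, a gamma crystallin, had -2.51 and 0.86 on day 3 and 3.41 and 6.15 on day 7, a difference of 5.61 ± 1.31. *Crygd* had -1.67 and 0.44 on day 3 and 2.82 and 6.82 on day 7, a difference of 5.44 ± 1.30, or 3.44 without day 7 replicate 2. In these gamma crystallins day 7 replicate 2 stood clearly above day 7 replicate 1. *Mip*, the water channel of lens fibre cells, had -2.28 and -1.39 on day 3 and 2.45 and 3.98 on day 7 by 1 of its 2 probe sets, a difference of 5.05 ± 1.51, and of 4.10 as their mean. *Bfsp1*, which encodes the beaded filament protein filensin, had -1.14 and -0.45 against 1.74 and 3.49, a difference of 3.41 ± 0.60. *Cryab* had -0.73 and -0.49 against 2.41 and 2.65 by the probe set with the widest gap, a difference of 3.14 ± 1.01, and its 3 probe sets, all above on day 7, differed by 1.87 on average. The others of the 10, *Cryba2*, *Crybb2*, *Cryba4* and *Crybb1*, differed by 3.93 to 5.58.

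In *Cryaa* the day 0 arrays differed from each other nearly as much as day 7 did from day 3. It stood at -3.03 on day 0 replicate 1 and at 3.45 on day 0 replicate 2. The median of the lens genes was -1.14 and 0.72 on the day 0 arrays, -1.14 and -0.43 on day 3, 1.71 and 3.14 on day 7 and 0.38 and -0.40 on day 14. At normal oxygen the list thus stood as low as on day 3 on 1 array, and between day 3 and day 7 on the other. The lens lies against the retina in the eye, and what part lens tissue in the samples had in these values was not tested. Without day 7 replicate 1 and with the other arrays kept, 1 probe set passed the adjusted p by limma, that of the gamma crystallin *Crygf* (adjusted p = 0.0065), named here because that call was seen. Its values were -0.01 and 0.02 on day 3 and 0.01 and 4.85 on day 7, so 1 array carried it.

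*Cryaa*, *Cryba1* and *Crygs* had the largest differences of the genes named. They ranked the 4 arrays in the same order, as did other lens genes such as *Cryba2* and *Crybb2*. The 150 bases before the annotated start of each of the first 3 are shown (RefSeq, mouse build GRCm38.p6, 5' to 3' on the strand of the gene). Matches to TATAAA or TATATA are in capitals. *Cryaa* is on the plus strand at chr17:31677781-31677930, *Cryba1* on the minus strand at chr11:77725294-77725443 and *Crygs* on the minus strand at chr16:22811411-22811560.
Cryaa: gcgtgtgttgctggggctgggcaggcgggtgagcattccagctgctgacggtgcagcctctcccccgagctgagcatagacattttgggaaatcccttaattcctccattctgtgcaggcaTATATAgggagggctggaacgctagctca
Cryba1: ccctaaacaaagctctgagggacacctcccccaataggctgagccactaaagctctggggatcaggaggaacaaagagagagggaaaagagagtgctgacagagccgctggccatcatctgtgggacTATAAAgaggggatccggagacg
Crygs: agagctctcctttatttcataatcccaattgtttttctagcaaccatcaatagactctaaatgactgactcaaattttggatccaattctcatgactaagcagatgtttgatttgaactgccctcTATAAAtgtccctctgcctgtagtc
Searched on both strands, with TATATA matching itself on the other strand, either motif was found in 9 of the 21 promoters listed for 20 of the lens genes (42.9%). Among all 32851 promoters of the same length it was found in 3114 (9.48%). The promoters shown all held a match, and most of the lens promoters did not. Whether the motif goes with the order of the arrays was not tested. A match is a description of these letters and not a measured binding site.

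**Figure D2:**
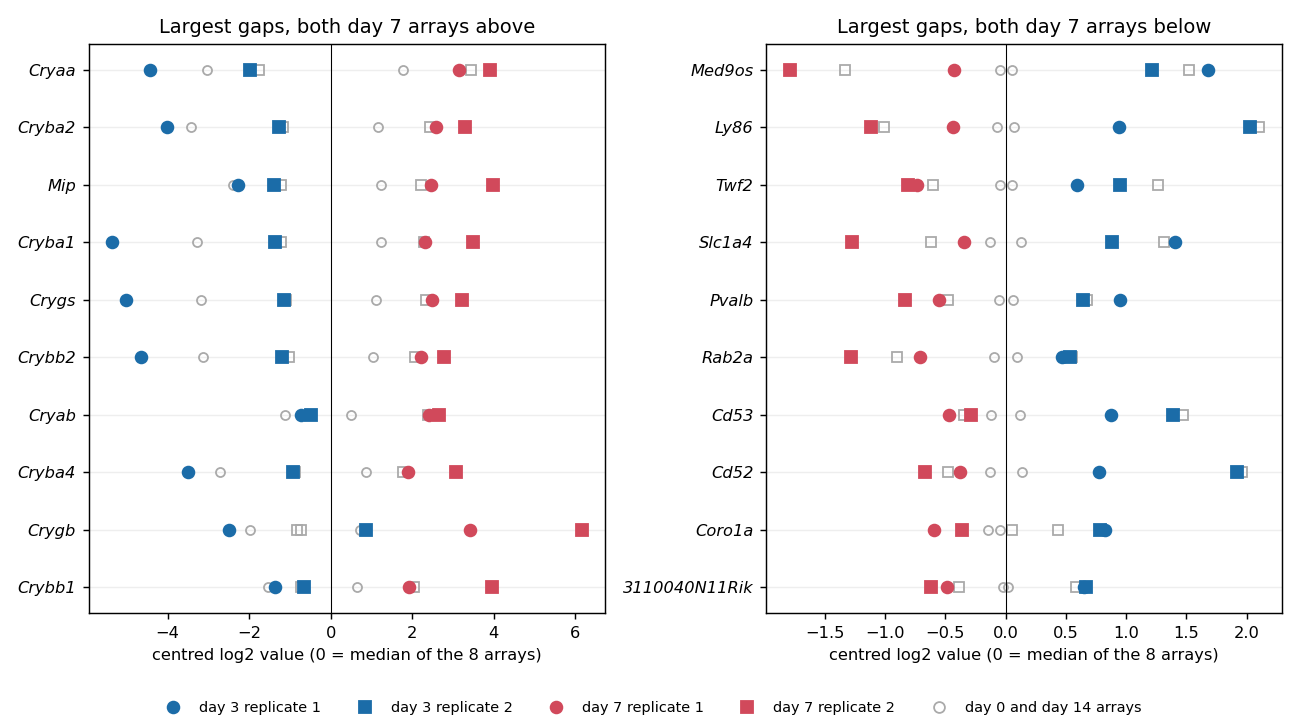
Centred log2 values (horizontal axis, 0 is the median of the 8 arrays) of the 10 genes with the largest gap between day 7 and day 3 in each direction, day 3 in blue and day 7 in red, with the day 0 and day 14 arrays in open grey (circles replicate 1, squares replicate 2). For Cryaa the gap is 5.14, with a day 0 array at -3.03 and another at 3.45, and on the right the widest gap is 1.64, for Med9os.

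The plot of the genes with the largest gaps sets both directions side by side. Among the 10 genes that stood lower on day 7, 4 are leukocyte genes (*Ly86*, *Cd53*, *Cd52* and *Coro1a*), and the gaps were smaller. *Med9os*, a transcript named as antisense to *Med9*, had 1.68 and 1.21 on the day 3 arrays and -0.43 and -1.79 on the day 7 arrays, a difference of -2.55 ± 0.67. *Pvalb*, a calcium buffer of fast muscle and of some neurons, had 0.95 and 0.64 against -0.55 and -0.83, a difference of -1.49 ± 0.26. *Twf2*, an actin-binding twinfilin, had 0.59 and 0.94 against -0.74 and -0.81, a difference of -1.54 ± 0.39. Both probe sets of *Twf2* lay below on day 7, with a mean difference of -1.09. For *Slc1a4*, a transporter of neutral amino acids, 1 of 3 probe sets lay below (-1.95 ± 0.54), and the mean of the 3 differed by -0.44. For *Rab2a*, a small GTPase of vesicle traffic, 4 of 7 did (-1.50 ± 0.38 for the widest), and their mean differed by -0.35. Of the 9010 genes with several probe sets, 752 had 1 set above and another below, so a probe set need not speak for its gene. *3110040N11Rik* stood at 0.65 and 0.66 against -0.49 and -0.62, a difference of -1.21 ± 0.22. The adjusted p of the 27 genes with the largest gaps or differences ran from 0.347 to 0.504 by limma.

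**Figure D3:**
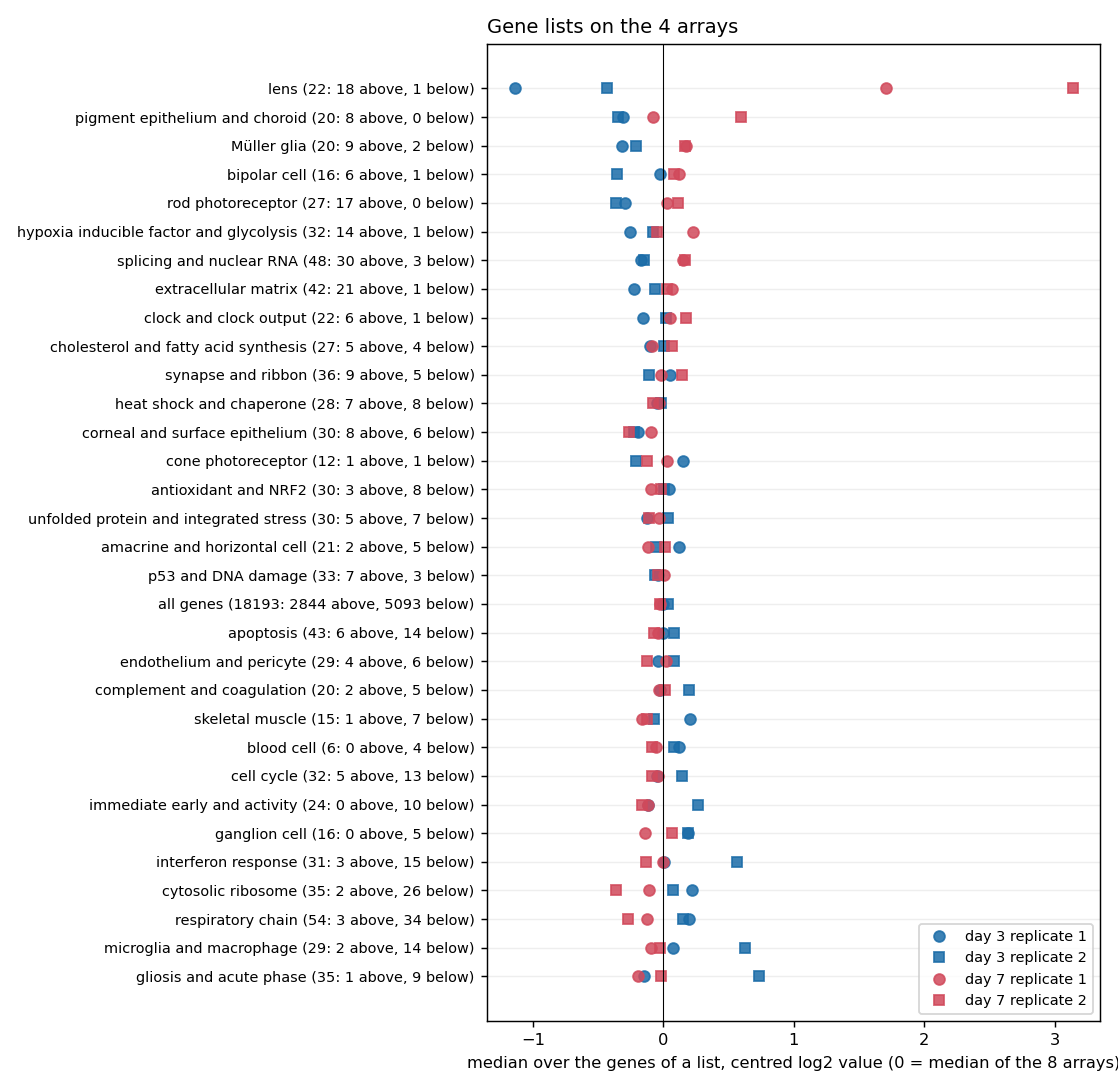
Median of the centred log2 values over the genes of each list (horizontal axis) on the 4 arrays, day 3 in blue and day 7 in red (circles replicate 1, squares replicate 2), with the number of genes measured and the numbers whose day 7 arrays both lay above or both below. Lists are ordered by their median difference, from 3.42 for lens genes to -0.53 for gliosis genes, whose high median on day 3 rests on replicate 2 (0.74).

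Genes of rods, the photoreceptors of dim light, stood mostly higher on day 7. Of 30 rod genes listed, 27 were measured, and rhodopsin was not among these. Of the 27, 17 lay above on day 7, 0 lay below and 10 overlapped, with a median difference of 0.45. The median of the rod genes was -0.30 and -0.36 on the day 3 arrays, 0.03 and 0.11 on the day 7 arrays, 0.06 and 0.08 on day 0, and 0.02 and -0.37 on day 14. The day 7 medians were thus near those of day 0, and the day 3 arrays were lower by a like amount. Without day 3 replicate 2, 19 rod genes lay above the remaining day 3 array and 6 below, where 34.7% and 41.7% of all genes did, and the median difference was 0.49.

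*Rgs9bp* anchors the complex that shuts off the rod light response. It had -0.94 and -0.46 on day 3 and 0.53 and 0.36 on day 7, a difference of 1.15 ± 0.27. *Crx*, a homeobox factor that drives photoreceptor genes, had -0.45 and -0.37 against 0.27 and 0.70, a difference of 0.89 ± 0.24. *Guca1b*, a calcium sensor that controls guanylate cyclase, had -0.60 and -0.19 against 0.16 and 0.30, a difference of 0.62 ± 0.16, or 0.42 without day 3 replicate 1. *Rgs9*, the GTPase activator held by *Rgs9bp*, had -0.26 and -0.04 against 0.26 and 0.33 as the mean of its 3 probe sets, a difference of 0.45 ± 0.13. Of the 3, only 1 lay above on day 7, with a difference of 1.28, or 0.83 without day 7 replicate 1. These genes control transcription in photoreceptors or the recovery of their light response, and are not taken here as specific to rods. The differences of the 27 genes ran from -0.45 to 1.15, and 4 of the 27 had a lower mean on day 7. The adjusted p of the 27 started at 0.285 by limma on gene means.

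Cone genes showed no such shift, with 1 of 12 above, 1 below and a median difference of 0.07 that turned to -0.04 without day 3 replicate 2. *Opn1sw*, the short-wavelength cone opsin, had -0.21 and -0.77 on day 3 and 0.03 and 0.49 on day 7, a difference of 0.74 ± 0.31, or 0.47 without day 3 replicate 2. *Pde6h*, an inhibitory subunit of the cone phosphodiesterase, differed by -0.76 ± 0.27, by -0.45 without day 3 replicate 1 and by -0.49 with day 7 replicate 2 left out. Of 16 bipolar cell genes, 6 lay above and 1 below, with a median difference of 0.46, or 0.25 without day 3 replicate 2. *Prkca*, the protein kinase that marks rod bipolar cells, had -0.61 and -0.44 against 0.10 and 0.46, a difference of 0.81 ± 0.22. *Otx2*, a homeobox factor of photoreceptors and bipolar cells, had -0.37 and -0.48 against 0.14 and 0.20, a difference of 0.60 ± 0.23. Of 36 genes of the synapse and its ribbon, the structure by which photoreceptors and bipolar cells release transmitter, 9 lay above and 5 below, and *Cacna1f*, their calcium channel, differed by 0.89 ± 0.24, or 0.53 without day 3 replicate 1.

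Ganglion cell genes stood lower or overlapped. Of 16 ganglion cell genes, 0 lay above and 5 below, a share of the list close to that over all genes on the deposited scale. After the further quantile normalization 5 of the 16 still lay below, where 3925 of all 18193 genes did. The median difference of the 16 was -0.19, or -0.08 without day 7 replicate 1 and -0.35 with day 7 replicate 2 left out. *Gap43*, a growth cone protein, had 0.72 and 0.47 on day 3 and -0.40 and -0.15 on day 7, a difference of -0.87 ± 0.16. *Sncg*, the gamma synuclein of ganglion cells, had 0.79 and 0.26 against -0.38 and -0.04, a difference of -0.74 ± 0.20, or -0.47 without day 3 replicate 1. *Vip*, a peptide of an amacrine cell class, had 0.79 and 0.72 against -0.44 and -0.19, the widest gap of the 21 amacrine and horizontal cell genes, with a difference of -1.07 ± 0.23. Of those 21, 2 lay above (9.52%) and 5 below (23.8%), where 15.6% and 28.0% of all genes did.

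Müller cell genes stood mostly higher on day 7. Of 20 measured, 9 lay above and 2 below, with a median difference of 0.46 and, without day 3 replicate 2, of 0.48. *Rlbp1*, the retinaldehyde-binding protein of the visual cycle, had -0.31 and -0.35 on day 3 and 0.22 and 0.37 on day 7, a difference of 0.62 ± 0.13. *Gpr37*, a receptor of glia, had -0.64 and -0.30 against 0.19 and 0.16, a difference of 0.64 ± 0.18. *Car14*, a carbonic anhydrase of the Müller cell membrane, had -0.32 and -0.41 against 0.18 and 0.66, a difference of 0.79 ± 0.24. *Cp*, ceruloplasmin, which oxidises iron and belongs also to the acute phase genes, stood the other way, at 0.35 and 0.64 against -0.19 and -0.02, a difference of -0.60 ± 0.19.

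**Figure D4:**
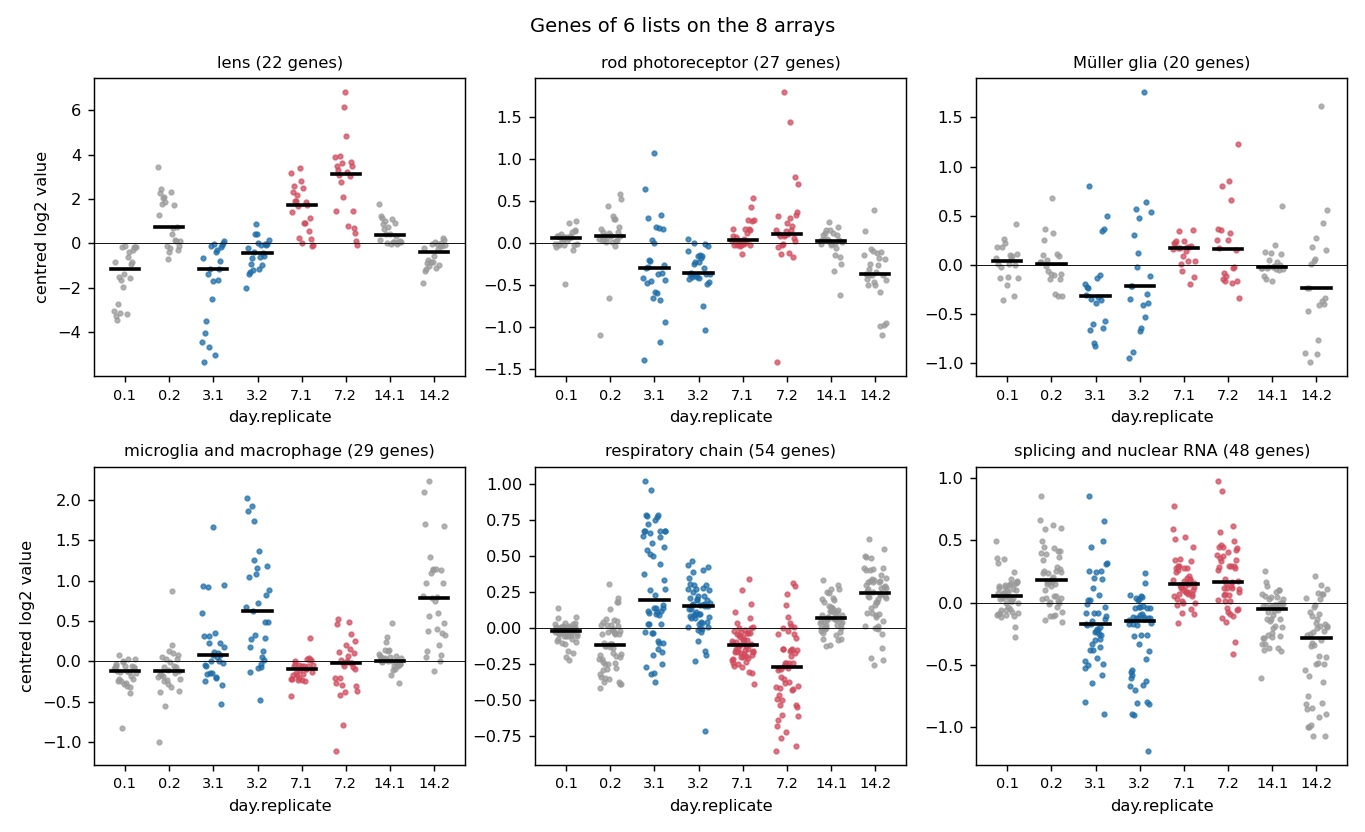
Centred log2 values (vertical axis) of the genes of 6 lists on the 8 arrays (horizontal axis, day and replicate), 1 point a gene and the black line their median, with day 3 in blue, day 7 in red and the other arrays in grey. The lens medians of the day 0 arrays are -1.14 and 0.72, and the microglia medians are 0.63 on day 3 replicate 2, 0.79 on day 14 replicate 2 and 0.07 or less on the other 6.

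Of 35 genes of gliosis and the acute phase, which glia make under stress, 1 lay above and 9 below (25.7%), a share under the 28.0% of all genes. That order did not hold after the further quantile normalization, when 11 of the 35 and 3925 of all 18193 genes lay below. The median difference of the 35 was -0.53. Their median was -0.15 on day 3 replicate 1 and 0.74 on day 3 replicate 2, against -0.19 and -0.02 on day 7. The median difference turned to 0.06 without day 3 replicate 2, with 12 genes above and 9 below, where 34.7% and 41.7% of all genes were. The median difference was -0.94 without day 3 replicate 1 and -0.27 with day 7 replicate 1 left out. *Gfap*, the intermediate filament of reactive glia, stood at 0.17 and 3.26 on day 3 and at -0.44 and -0.17 on day 7 by its most variable probe set, a difference of -2.02 ± 1.09. That difference was -0.47 without day 3 replicate 2 and -3.57 with day 3 replicate 1 left out. *Cebpd*, a transcription factor of the acute phase, had 0.47 and 2.32 against -1.08 and -0.61 by 1 of its 2 probe sets, a difference of -2.23 ± 0.74, and of -1.31 without day 3 replicate 2. *Bcl3*, a partner of NF-kappaB, had 0.09 and 2.65 against -0.36 and -0.09, a difference of -1.60 ± 0.90, of -0.32 without it and of -2.88 without day 3 replicate 1. *Junb*, an AP-1 subunit, had 0.19 and 1.17 against -0.51 and -0.68, a difference of -1.28 ± 0.36, or -0.79 without day 3 replicate 2. In *Junb* and *Cebpd* both day 3 arrays were above both day 7 arrays, by 0.70 or more on the means of their probe sets.

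Immediate early genes, which respond to activity and stress within minutes, lay below on day 7 in 10 of 24 and above in 0, with a median difference of -0.19. Without day 3 replicate 2 the counts were 9 above and 11 below, near the 34.7% and 41.7% of all genes, and the median difference was -0.09. It was -0.40 without day 3 replicate 1. *Ier2* had 0.10 and 0.29 on day 3 and -0.52 and -0.63 on day 7, a difference of -0.77 ± 0.13. *Egr1*, a zinc finger factor, had -0.64 and 1.62 against -0.83 and -1.03, so that its difference of -1.42 ± 0.62 rested on day 3 replicate 2 and was -0.29 without it and -2.55 without day 3 replicate 1.

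Microglial and macrophage genes stood lower on day 7, again most of all against day 3 replicate 2. Of 29 measured, 14 lay below, 2 above and 13 overlapped, with a median difference of -0.53. Without day 3 replicate 2, 15 lay below and 7 above, where 41.7% and 34.7% of all genes did, and the median difference was -0.11. *Ly86*, a partner of the receptor RP105 on myeloid cells, had 0.94 and 2.03 on day 3 and -0.43 and -1.12 on day 7, a difference of -2.26 ± 0.71. *Cd53*, a tetraspanin of leukocytes, had 0.88 and 1.39 against -0.47 and -0.29 by the probe set with the widest gap, a difference of -1.51 ± 0.42, and the mean of its 2 probe sets, of which the other overlapped, differed by -0.85. *Cd52*, a small surface glycoprotein of leukocytes, had 0.77 and 1.92 against -0.38 and -0.67, a difference of -1.87 ± 0.61. *Coro1a*, a coronin of the leukocyte cytoskeleton, had 0.83 and 0.78 against -0.60 and -0.36, a difference of -1.28 ± 0.20, by the probe set with the widest gap. Another of its 3 probe sets had 0.66 and 1.53 against -0.45 and -0.38, and the last did not lie below. *Gpr34*, a microglial lipid receptor, was higher on day 3 replicate 1, with 0.94 and 0.48 against -0.13 and -0.30, a difference of -0.93 ± 0.24. Both day 0 arrays had a list median of -0.12 and -0.13, so the day 7 medians of -0.10 and -0.03 lay beside those of normal oxygen. The array labelled day 14 replicate 2 had 0.79.

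The promoter of *Cd53* is shown as that of a leukocyte gene whose day 3 arrays both stood above day 7, with GAGGAA, the core that binds the myeloid factor PU.1, in capitals. The 150 bases before its start lie on the minus strand at chr3:106790150-106790299 (RefSeq, GRCm38.p6).
Cd53: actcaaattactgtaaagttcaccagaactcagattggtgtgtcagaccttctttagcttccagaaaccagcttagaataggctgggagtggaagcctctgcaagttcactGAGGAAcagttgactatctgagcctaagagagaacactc
Searched on both strands, GAGGAA was found in 9 of the 23 promoters listed for 21 of the microglial and macrophage genes (39.1%) and in 4754 of the 32851 promoters (14.5%). That of *Ly86* did not hold these letters in the window searched.

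The C1q chains of complement followed the same arrays. *C1qa* had 0.36 and 1.05 on day 3 and -0.38 and 0.01 on day 7, a difference of -0.89 ± 0.37, or -0.54 without day 3 replicate 2. *C1qb* had 0.08 and 1.99 against -0.63 and -0.72 by its most variable probe set, a difference of -1.71 ± 0.80, of -0.76 without day 3 replicate 2 and of -2.67 with day 3 replicate 1 left out. *C1qc* had 0.17 and 1.94 against -0.39 and -0.17, a difference of -1.33 ± 0.71, of -0.45 and -2.22 without the same arrays in turn. All 3 chains of C1q, the recognition molecule of the classical pathway, were thus higher on day 3 replicate 2 than on the other 3 arrays compared. Of 20 complement and coagulation genes, 2 lay above and 5 below, on the deposited scale a smaller share than the 28.0% of all genes. After the further quantile normalization 5 of the 20 still lay below, where 3925 of all 18193 genes did. On the deposited scale 7 of the 20 had a higher mean on day 7. The median difference of the 20 was -0.10, or 0.02 without day 3 replicate 2 and -0.21 without day 3 replicate 1. Of 31 interferon response genes, 15 lay below and 3 above, with a median difference of -0.37, or -0.10 without day 3 replicate 2 and -0.70 with day 3 replicate 1 left out. *Ifit2*, an interferon-induced RNA-binding protein, had 0.85 and 0.42 on day 3 and -0.22 and -0.32 on day 7, a difference of -0.91 ± 0.16. *Ifit3* had 0.60 and 0.66 against -0.14 and -0.34, a difference of -0.87 ± 0.28. *Gbp2*, an interferon-induced GTPase, had 0.36 and 1.25 against -0.32 and -0.87, a difference of -1.40 ± 0.49. *Ifit1*, given after its values were seen as the lowest of the list, had 0.51 and 1.74 against 0.14 and -0.75, a difference of -1.43 ± 0.78, or -0.81 without day 3 replicate 2. In *Ifit2* and *Ifit3* day 3 replicate 1 stood near or above day 3 replicate 2, and in *Ifit1* it stood well below.

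Genes of the mitochondrial respiratory chain, where retinal oxygen is consumed, were lower on day 7 on both arrays in 34 of 54, higher in 3, and overlapped in 17. Their median difference was -0.47, and -0.57 without day 3 replicate 2. The median of the list was 0.19 and 0.15 on day 3, -0.12 and -0.27 on day 7, -0.02 and -0.12 on day 0 and 0.07 and 0.24 on day 14. *Atp5o*, a stalk subunit of ATP synthase, had 0.67 and 0.17 on day 3 and -0.39 and -0.61 on day 7, a difference of -0.92 ± 0.21. *Cox7a2*, a subunit of cytochrome c oxidase, had 0.67 and 0.15 against -0.30 and -0.43, a difference of -0.78 ± 0.19, or -0.52 without day 3 replicate 1. *Cox6b1*, of the same complex, had 0.44 and 0.22 against -0.21 and -0.43, a difference of -0.66 ± 0.17. *Sdhb*, the iron-sulphur subunit of succinate dehydrogenase, had 0.14 and 0.22 against -0.27 and -0.25, a difference of -0.44 ± 0.11. These are subunits of different complexes of the chain, and for *Atp5o* and *Cox7a2* day 3 replicate 1 was the highest of the 8 arrays.

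The proteins of the cytosolic ribosome had a like pattern. Of 35 measured, 26 lay below and 2 above, with a median difference of -0.39. *Rpl35* had 0.57 and 0.24 on day 3 and -0.26 and -0.72 on day 7, a difference of -0.89 ± 0.21. *Rps26* had 0.57 and 0.19 against -0.18 and -0.61, a difference of -0.77 ± 0.20. Ribosomal protein genes have many near-identical processed copies in the genome, to which the probes may also bind, so single members are uncertain. Among 30 antioxidant genes 3 lay above and 8 below, and *Prdx3*, the peroxiredoxin of mitochondria, had 0.66 and 0.21 against -0.24 and -0.18, a difference of -0.65 ± 0.17, or -0.42 without day 3 replicate 1. *Prdx4*, the peroxiredoxin of the endoplasmic reticulum, had 0.60 and 0.61 against -0.12 and -0.50, a difference of -0.92 ± 0.29. The median of the antioxidant list was 0.03 and turned to -0.08 without day 3 replicate 2.

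Genes of glycolysis and of the hypoxia-inducible factor, which oxygen keeps low, stood higher on day 7. Of 32 measured, 14 lay above and 1 below, with a median difference of 0.38. Without day 3 replicate 2 it was 0.41, with 23 above and 2 below, where 34.7% and 41.7% of all genes were. The median difference was 0.24 without day 7 replicate 1 and 0.29 with day 3 replicate 1 left out. *Vegfa*, the vascular growth factor that hypoxia induces, had -0.50 and -0.34 on day 3 and 0.35 and 0.64 on day 7, a difference of 0.92 ± 0.21. *Pfkp*, a phosphofructokinase, had -0.25 and -0.88 against 0.91 and 0.64, a difference of 1.34 ± 0.34. *Pkm*, pyruvate kinase, had -0.67 and -0.34 against 0.17 and 0.09, a difference of 0.64 ± 0.18. *Slc2a1*, the glucose carrier of the blood-retina barrier, had -0.58 and -0.34 against 0.28 and -0.06, a difference of 0.57 ± 0.17. For *Vegfa* and *Pfkp* the day 0 arrays also lay above both day 3 arrays, at 0.01 and 0.46 and at 0.34 and 0.78.

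RNAs that stay in the nucleus and factors of splicing were higher on day 7 in 30 of 48 and lower in 3, with a median difference of 0.37 and, without day 3 replicate 2, of 0.35. *Meg3*, an imprinted long noncoding RNA, had -0.80 and -0.67 on day 3 and 0.78 and 0.98 on day 7 as the mean of its 11 probe sets, a difference of 1.61 ± 0.22. *Malat1*, a noncoding RNA of nuclear speckles, had -0.52 and -0.17 against 0.59 and 0.38, a difference of 0.84 ± 0.16. *Snrnp70*, a protein of the U1 particle, had -0.49 and -0.26 against 0.33 and 0.28, a difference of 0.68 ± 0.14. *Srsf6*, a splicing factor, had -0.38 and -0.26 against 0.27 and 0.37, a difference of 0.64 ± 0.16. In *Meg3* the arrays of each time lay close together, unlike those in the lens genes. The median difference of the list was 0.24 without day 3 replicate 1.

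Genes of the extracellular matrix lay above on day 7 in 21 of 42 and below in 1, with a median difference of 0.28 with or without day 3 replicate 2. *Col4a1*, a chain of basement membrane collagen, had -0.94 and -0.53 on day 3 and 2.06 and 1.02 on day 7, a difference of 2.27 ± 0.53. *Nid1*, nidogen, which links basement membrane networks, had -0.31 and -0.17 against 0.76 and 0.51 as the mean of its 3 probe sets. The difference of that mean was 0.88 ± 0.23, and 1 of the sets differed by 2.45. *Col2a1*, a collagen of vitreous and cartilage, had -0.84 and -0.28 against 0.30 and 0.11, a difference of 0.77 ± 0.20, or 0.48 without day 3 replicate 1. *Col4a1* also stood at 1.51 on day 0 replicate 2 and at -0.08 on day 0 replicate 1, the arrays that differed in lens genes.

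Of 20 genes of the pigment epithelium and choroid, the tissues behind the retina, 8 lay above and 0 below, but their median difference of 1.08 was 0.21 without day 7 replicate 2. It was 0.54 when day 3 replicate 2 was left out. *Ptgds*, prostaglandin D synthase, had -0.79 and -1.12 on day 3 and 0.01 and 1.13 on day 7, a difference of 1.52 ± 0.44, or 0.96 without day 7 replicate 2. *Stra6*, the retinol receptor, had -0.32 and -0.44 against -0.07 and 1.88, so that its difference of 1.28 ± 0.58 rested on day 7 replicate 2 and was 0.31 without it and 2.26 without day 7 replicate 1. *Ttr*, transthyretin, had -0.38 and -0.40 against -0.15 and 1.44, a difference of 1.03 that was 0.24 and 1.83 without those arrays in turn. Of 30 genes of the corneal and surface epithelium 8 lay above (26.7%) and 6 below (20.0%), where 15.6% and 28.0% of all genes did. Their median difference was 0.08. *Aldh3a1*, a main soluble enzyme of the cornea, had -2.76 and -2.89 on day 3, against 0.68 and -0.66 on day 7, a difference of 2.84 ± 0.85. Of 15 skeletal muscle genes 1 lay above and 7 below, with a median difference of -0.11 that ranged from -0.43 (day 3 replicate 2 left out) to -0.06 (day 3 replicate 1 left out). Of 6 blood cell genes 0 lay above and 4 below, with differences from -0.57 to -0.04 and a median of -0.16, or -0.27 without day 3 replicate 2. The part of these neighbouring tissues in the other differences was not tested.

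Clock genes and their outputs lay above on day 7 in 6 of 22 and below in 1, with a median difference of 0.24, or 0.08 without day 3 replicate 1 and 0.36 with day 3 replicate 2 left out. *Nr1d1*, a repressor of the clock, had -0.60 and -0.22 on day 3 and 0.27 and 0.72 on day 7, a difference of 0.90 ± 0.22. *Rora*, its activating counterpart, had -0.26 and -0.44 against 0.23 and 0.61, a difference of 0.77 ± 0.20. *Per3* differed by 0.48 ± 0.15, or 0.32 without day 7 replicate 1. The hours at which retinas were taken are not given in the sources used here.

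Lists of cell death and damage had median differences near 0. Of 43 apoptosis genes 6 lay above (14.0%) and 14 below (32.6%), where 15.6% and 28.0% of all genes did. Their median difference was -0.06. *Bbc3*, the p53 target PUMA, had 0.58 and 0.38 on day 3 and -0.31 and -0.15 on day 7, a difference of -0.71 ± 0.14. *Siva1*, a proapoptotic protein, had 0.84 and 0.55 against -0.24 and -0.85 as the mean of its 4 probe sets, a difference of -1.24 ± 0.31. *Apaf1*, the scaffold of the apoptosome, stood the other way, at -0.41 and -0.26 against 0.17 and 0.10, a difference of 0.47 ± 0.13. Of 33 genes of p53 and DNA damage 7 lay above and 3 below, of 32 cell cycle genes 5 and 13, and of 30 genes of the unfolded protein and integrated stress responses 5 and 7. *Atf5*, a factor of the integrated stress response, had 0.52 and 0.46 against -0.36 and -0.46, a difference of -0.90 ± 0.15. Of 28 heat shock and chaperone genes 7 lay above and 8 below. *Hspb1*, a small heat shock protein, differed by 1.47 ± 0.59, by 0.47 without day 7 replicate 2 and by 2.47 with day 7 replicate 1 left out. Of 27 genes of cholesterol and fatty acid synthesis 5 lay above and 4 below, and of 29 genes of vessel walls 4 and 6. Medians of these lists lay between -0.17 and 0.13. That of the cell cycle genes was -0.05 without day 3 replicate 2 and -0.26 with day 3 replicate 1 left out. That of the cholesterol genes was between 0.02 (without day 7 replicate 2) and 0.29 (with day 3 replicate 2 left out).

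The genes that the study names were chosen on these same samples, so their counts are not independent evidence. Of 43 measured, each by its most variable probe set, 11 lay above, 10 lay below and 22 overlapped. Over all probe sets 16.5% lay above and 24.1% below, but those were not chosen by their spread. The adjusted p of the 43 ran from 0.347 to 0.975 by limma. *Pex5l*, a protein related to the peroxisomal import receptor, is the gene to which the annotation used here assigns a probe set that the study lists under the name *Pex2*. It had -0.45 and -0.57 on day 3 and 0.98 and 0.84 on day 7, the widest gap of the 43, with a difference of 1.43 ± 0.16. Of its 4 probe sets 3 lay above, and the mean of the 4 differed by 0.76. *Igf1r*, the receptor of insulin-like growth factor, had -0.69 and -0.51 against 0.01 and 0.68, a difference of 0.95 ± 0.29, or 0.61 without day 7 replicate 2. *Col11a1*, a fibrillar collagen, had -0.69 and -0.30 against 0.46 and 0.14, a difference of 0.79 ± 0.19. *Rpgrip1*, a protein of the photoreceptor cilium, had -0.03 and -1.16 against 0.15 and 1.07, with its 4 probe sets on the same side and a difference of 1.20 ± 0.52, or 0.64 without day 3 replicate 2 and 0.74 with day 7 replicate 2 left out. *Lin7b*, a scaffold protein of the synapse, had 0.20 and 2.53 against -0.41 and -0.78, a difference of -1.96 ± 1.03 that was -0.80 without day 3 replicate 2 and -3.13 with day 3 replicate 1 left out. *Dmd*, dystrophin, had 0.25 and -2.30 against 0.25 and 0.81, so that its difference of 1.56 ± 0.92 was 0.28 without that array and 2.83 without day 3 replicate 1.

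Among the 22 that overlapped, *Edn2*, an endothelin made by stressed photoreceptors, had -0.34 and 3.51 on day 3 and -0.01 and 2.07 on day 7. *Hif1a*, the oxygen-regulated subunit of the hypoxia-inducible factor, had 1.11 and -1.65 against -0.24 and 2.49. *Akt1*, a survival kinase, had 0.77 and -2.22 against -0.77 and 0.87. Their differences were -0.56, 1.39 and 0.78, and without day 3 replicate 2 they were 1.37, 0.01 and -0.72. In these genes the arrays of 1 time lay further apart than the times did. *Gadd45b*, a gene of the stress response, had -0.18 and 1.76 against -0.27 and -0.02, with day 3 replicate 2 alone standing apart, so that its difference of -0.94 was 0.04 without it.

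Where day 7 and day 3 were 2-fold apart with no overlap, the day 0 arrays mostly lay nearer to day 7. Of the 595 that were higher, the day 0 mean was nearer to the day 7 mean than to the day 3 mean in 527 (88.6%), and of the 453 that were lower it was so in 438 (96.7%). Over all 45037 probe sets it was nearer to day 7 in 67.9%. The day 14 mean was nearer to day 7 in 60 of the 595 (10.1%) and 56 of the 453 (12.4%), beside 39.1% over all. With day 14 replicate 1 alone as day 14, these became 198 (33.3%) and 237 (52.3%), beside 48.6%. The median of the 595 was -0.51 and -0.66 on day 3, 0.46 and 0.68 on day 7 and 0.13 and 0.60 on day 0. The median of the 453 was 0.92 and 0.35 on day 3, -0.28 and -0.79 on day 7 and -0.03 and -0.46 on day 0.

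**Figure D5:**
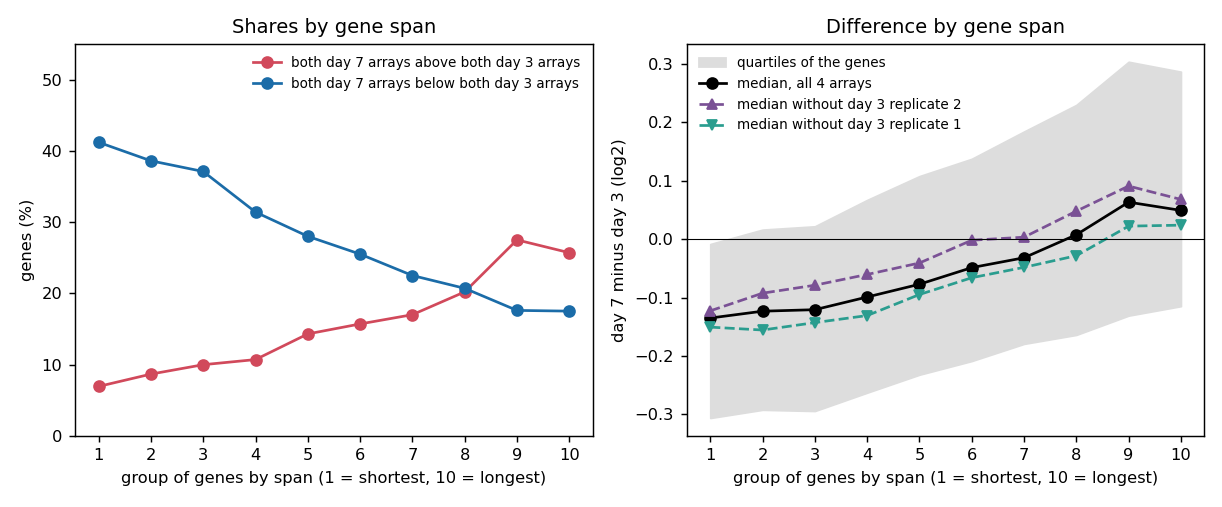
Genes in 10 groups of equal size by the length of the gene in the genome (horizontal axis, 1 is the shortest), with the percentage whose day 7 arrays both lay above (red) or both below (blue) the day 3 arrays on the left and the median and quartiles of the difference in log2 on the right. The share below is 41.2% in the shortest group and 17.5% in the longest, the share above is 6.93% and 25.7%, and the medians without either day 3 array run alongside.

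The genes on either side also differed in length. The span of a gene, from its first to its last base in RefSeq (GRCm38.p6), was known for 99.1% of the genes. Its median was 36.3 kb (quartiles 15.6 and 87.0) for genes above on day 7, 13.2 kb (5.44 and 31.9) for genes below and 20.3 kb over all. With the genes in 10 groups of equal size by span, as in the plot of shares by gene span, the share above was 6.93% in the shortest group, 27.5% in the ninth and 25.7% in the longest. The share below was 41.2% in the shortest and 17.5% in the longest. The median difference was -0.14 in the shortest group and 0.05 in the longest. These were -0.12 and 0.07 without day 3 replicate 2. They were -0.15 and 0.02 when day 3 replicate 1 was left out. The part of span in the differences of the lists was not tested. Probe sets with no gene in the annotation made up 20.3% of all, 19.5% of the 595 and 2.21% of the 453.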

How the data were processed

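Total RNA of retina was labelled and hybridized to 8 Affymetrix GeneChip arrays of the mouse genome, grouped by the time on their labels. The authors deposited log2 values from RMA, per the submitters' processing notes, and each probe set is centred on its median over the 8 arrays (to within 1e-06), a step the sources used here do not describe. The MAS5 calls of the study's methods were not used. Of 45101 probe sets, 64 controls were set aside, 34945 of the rest name 1 gene, 932 several and 9160 none by the platform annotation (updated through RefSeq for 34741). The number of arrays limits the precision. With limma 3.58.1 in R 4.3.3, 4 group means were fitted to all 8 arrays (4 residual and 2.71 prior degrees of freedom), the day 7 minus day 3 contrast was tested, and the Benjamini-Hochberg adjustment was taken over the 45037 probe sets (separately over 18193 genes for means of a gene's sets), with a threshold of 0.05. The fit was tested on simulated data. Counts were made in Python 3.11.15 with pandas 2.3.3.

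Named genes are, in each direction, the 10 with the largest gap between the nearest arrays and the 10 with the largest difference (both without overlap), up to 4 of each list of cell types or pathways with the smallest p (34 lists when those of genes the study names are included), and those the study names, by their most variable probe set. The comparison, the lists and this rule were chosen with earlier results of these data known. Lists are described by counts and medians of gene means, with no set test. The main fit did not pair arrays by replicate number. The deviations of same-numbered arrays correlated at -0.40 for day 3 and day 7. They correlated at 0.55 for day 3 and day 14 and at 0.44 for day 0 and day 7. For the other pairs of times the correlation was -0.38 to -0.22. Whether the arrays were handled in batches was not tested. Alternatives were another scaling, the replicate number as a block, the 4 arrays alone, a robust prior, analysis of variance, gene means, another probe set for a gene, other rules for the fold, and leaving out arrays (an array then alone at its time takes the spread of the rest). Some genes of the lists were not analysed here.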

Additional observations from a re-analysis of the deposited data

How the results depend on the processing

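Fits by limma on probe sets after further quantile normalization, array median subtraction, on the 4 arrays alone, with a robust prior, or without day 3 replicate 2 and day 14 replicate 2 together (chosen after seeing the data) all gave 0 probe sets past the adjusted p, as did gene means (0 genes). Leaving out 1 array gave 0 to 1, the 1 without day 7 replicate 1, and analysis of variance gave 1. With gene means and without day 3 replicate 2, a fit chosen after seeing the data in which the remaining day 3 array takes its spread from the rest, 521 genes passed (lowest adjusted p 0.033), among them 14 of the genes named. With the replicate block on all 8 arrays 0 probe sets passed. The block on the 4 arrays and the crossed pairing, both chosen after seeing the data, gave 0 each. Within replicate number 1 the block leaves 1931 probe sets 2-fold higher, 1473 lower, 21591 above and 23393 below, and within replicate number 2 it leaves 2685, 1266, 19022 and 25950. Further quantile normalization gave 264 probe sets 2-fold higher and 418 lower. Gene means gave 137 and 190 genes, with 2844 above and 5093 below. Asking for 2-fold in every pair of arrays gave 87 and 26. Leaving out 1 of the 4 arrays gave 930 (without day 7 replicate 2) to 1979 (without day 7 replicate 1) probe sets 2-fold higher, with 1800 without day 3 replicate 1. It gave 275 (without day 7 replicate 2) to 1374 (without day 3 replicate 2) lower, with 1035 without day 7 replicate 1. It gave 12658 to 16036 above and 16439 to 20046 below, since 1 array of a time is easier to clear than 2. The higher share of the 2-fold probe sets ran from 47.1% (without day 3 replicate 2) to 77.2% (without day 7 replicate 2). The cause of the other shifts was not tested. Of 187 named differences (a gene by probe set or by mean), 17 changed direction in 30 of 2431 repeats, all 17 of them genes named in the study whose arrays overlapped. For genes without overlap, leaving out 1 array could not turn the sign. Further quantile normalization turned *Htra1* (-0.079), *Akt1* (-0.081), *Ly96* (0.035) and *Serpinc1* (0.025), and array median subtraction turned *Ly96* (0.0031). Leaving out 1 array at a time gave differences of *Htra1* from -0.67 to 0.80, *Hspa1b* from -0.26 to 0.62, *Serpinc1* from -0.13 to 0.066, *Edn2* from -2.48 to 1.37, *Opn1mw* from -0.12 to 0.65, *Prpf3* from -0.40 to 0.23, *Gadd45b* from -1.91 to 0.035, *Oxr1* from -0.99 to 1.59, *Crb1* from -0.16 to 1.65, *Rpgr* from -0.11 to 0.63, *Wfs1* from -0.87 to 0.31, *Vwf* from -1.32 to 0.60, *Akt1* from -0.72 to 2.27, *Api5* from -0.34 to 2.66, *Serping1* from -1.53 to 0.46, *Thbs1* from -0.30 to 2.20 and *Ly96* from -0.22 to 0.17. Of the 25 turns so made, 12 came without day 3 replicate 2. Of 238 list medians, 25 changed sign, among them those of gliosis and of complement genes, both without day 3 replicate 2. Signal over background is unknown, so a background correction or a filter on dim probe sets could not be run.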

Other observations

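Some of the 61 genes that lay 2-fold or more above on every day 7 array belong to none of the lists, and those given here were chosen after their values were seen. *Ogt* and *Oga* add and remove O-linked N-acetylglucosamine on proteins. *Ogt* had -1.15 and -0.83 on the day 3 arrays and 0.57 and 1.44 on the day 7 arrays, with an SE of the difference of 0.33. *Oga* had -0.87 and -1.30 against 0.43 and 1.76, a difference of 2.18 ± 0.79 (SE). Both day 3 arrays of these genes were thus below both day 7 arrays, and the day 7 arrays differed from each other. *Snhg11*, a noncoding host of small nucleolar RNAs, had -0.76 and -0.91 against 1.15 and 0.70 by the wider of its probe sets, a difference of 1.76 ± 0.47. *Kcnq1ot1*, an imprinted noncoding RNA, had -0.66 and -0.24 against 1.46 and 1.03, a difference of 1.70 ± 0.33. *Slc6a6*, the taurine transporter, had -1.13 and -1.21 against 0.07 and 0.63, a difference of 1.52 ± 0.43.

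Of the 23 genes that lay 2-fold or more below, *Psmb3*, a proteasome subunit, had 0.89 and 0.62 on day 3 and -0.40 and -1.07 on day 7, a difference of -1.49 ± 0.36. *Mrpl52*, a mitochondrial ribosomal protein, differed by -1.41 ± 0.41, and *Nenf*, a secreted neurotrophic protein, by -1.31 ± 0.27. *Tyrobp*, the signalling adaptor of microglial receptors and a member of the microglial list, had 0.92 and 1.93 against -0.14 and -0.41, a difference of -1.70 ± 0.65. No adjusted p of these genes by limma was under 0.347.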
